A study of Homo sapiens with 4 samples.

Results

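The proteasome subunit genes are the 43 genes, of 25369 in the count table, whose symbols begin PSMA, PSMB, PSMC, PSMD or PSME and end in a number. They were measured by sequencing of polyadenylated RNA in H226, an established human cell line labelled as lung squamous cell carcinoma. Cells carried a doxycycline-inducible short hairpin RNA, directed against p63 in the shp63 group (n = 2 cultures) and non-targeting in the shControl group (n = 2 cultures), so that 1 hairpin construct stands for each group. All 4 cultures, shControl included, received doxycycline at 1 µg/mL for 6 days. The comparison asks how transcripts differ when p63, the transcription factor that sustains basal epithelial cells, is reduced.

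The proteasome is the protease complex that degrades ubiquitin-tagged proteins. Its barrel-shaped core stacks outer rings of alpha subunits (PSMA) on inner rings of beta subunits (PSMB), and the regulatory particle that caps it binds, unfolds and feeds in substrates through a base of ATPases (PSMC) and other subunits (PSMD) and a lid that removes ubiquitin. Only 3 of the constitutive beta subunits cut peptide bonds, and in immune or interferon-exposed cells PSMB8, PSMB9 and PSMB10 can replace them, giving the immunoproteasome, which favours peptides for HLA class I presentation. The PSME genes encode activators that open the core in place of the regulatory particle.

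The libraries held 51926832 to 53924761 counted reads, and 14901 genes passed the filter on low counts. TP63 itself had 30.7 and 30.5 CPM in the shp63 libraries, against 136 and 137 CPM in the shControl libraries (CPM, read counts scaled to a common library size with TMM factors; adjusted p = 2.28e-21, edgeR quasi-likelihood test with Benjamini-Hochberg adjustment). Of 9 squamous markers 8 fell and 1 rose; KRT5, DSG3 and CLCA2 were present in both groups, but SOX2 was at 0.0192 and 0.0598 CPM in shp63 and 0.252 and 0.205 CPM in shControl. Other cell types' lists were read for mixture: summed levels were 74.6 to 78.7 CPM in shp63 and 12.97 to 14.4 CPM in shControl for leukocyte markers, 630 to 636 and 334 to 361 CPM for mesothelial markers, 67.1 to 75.2 and 97.2 to 102 CPM for fibroblast markers, and 190 to 191 and 59.9 to 65.0 CPM for endothelial markers. Few genes carried these sums, CD14 and CD68 for leukocytes, MSLN and UPK3B for mesothelium, COL1A1 for fibroblasts and CDH5 for endothelium. CDH5 had 188 and 187 CPM in shp63, against 53.9 and 59.5 CPM in shControl, while VWF of the same list fell 3.57-fold and KDR and TEK were at or below 0.112 CPM in every library, as DCN and LUM of the fibroblast list and WT1 of the mesothelial list were below that level.

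Most proteasome subunit genes were slightly lower with the p63 hairpin, while all 3 immunoproteasome genes were higher. Of the 43 genes 41 were tested, since PSMA8, an alpha subunit of the testis, and PSMB11, the beta subunit of thymic epithelium, had 0 reads in every library. Among the tested genes 32 (78.0%) were lower in shp63, 5 (12.2%) higher and 4 not past an adjusted p of 0.05 (edgeR quasi-likelihood test, Benjamini-Hochberg adjustment over all 14901 genes). Across all tested genes 37.1% were lower and 36.9% higher by the same rule, or 74.0% in either direction. For 38 of the 41 genes both libraries of one group lay beyond both of the other, where 86.4% of all tested genes did so. Outside the immunoproteasome the change was small: 34 of 38 genes had a log2 fold change below 0, where 50.6% of all tested genes did. The 38 genes had quartiles at -0.24 and -0.11 and a median change of -10.8%. Quartiles over all tested genes, which include genes with few reads, were -0.35 and 0.38. In bulk RNA, fewer cells of a kind and less RNA per cell cannot be told apart.

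**Figure D1:**
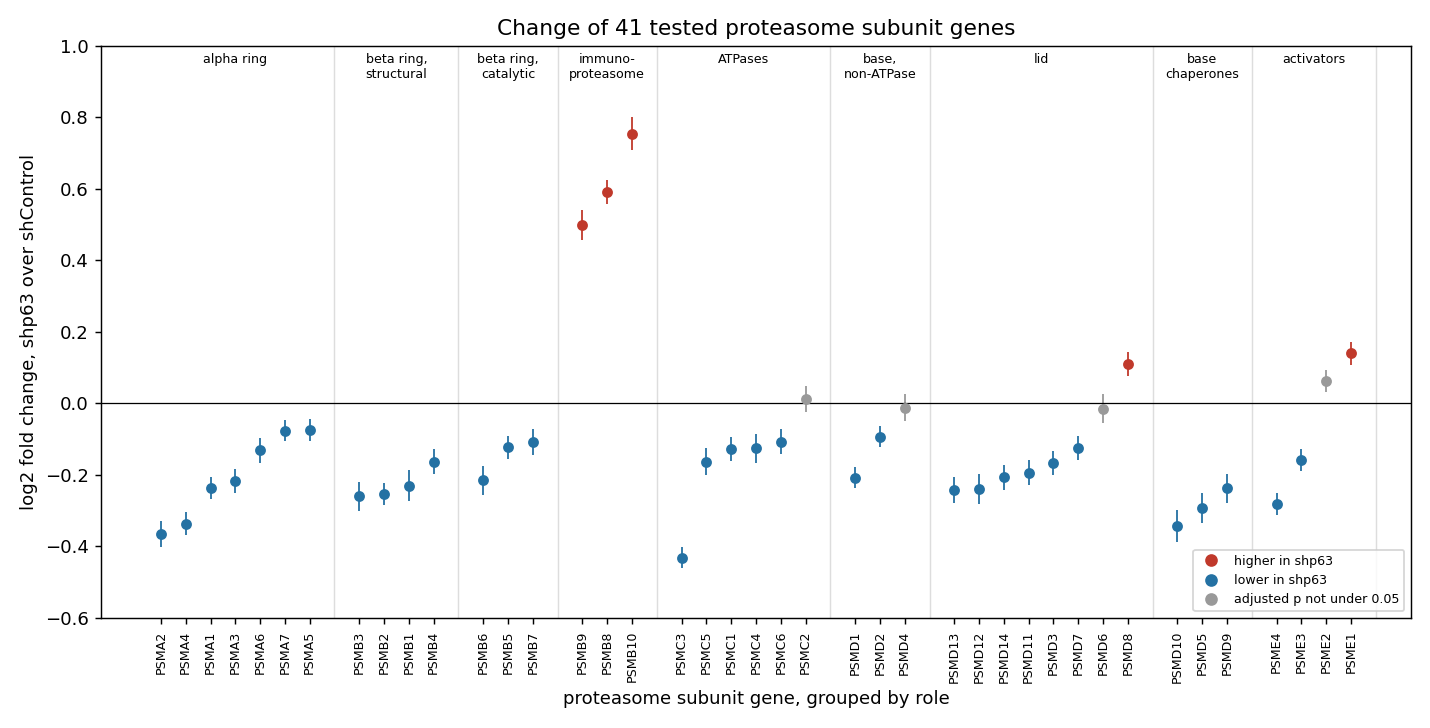
Log2 fold change (shp63 over shControl) of the 41 tested proteasome subunit genes, grouped by role, with bars of 1 standard error from the edgeR fit over 2 libraries a group; colours give the call at an adjusted p under 0.05. The 3 immunoproteasome genes lie between 0.50 and 0.75, and all 14 constitutive core genes lie between -0.37 and -0.07.

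A stricter test, for a change beyond 1.5-fold (edgeR's glmTreat), called 1 of the 41 proteasome genes, PSMB10, which was higher in shp63. Over all tested genes that test called 22.7% in either direction. An exact permutation test on 2 against 2 libraries gives a p of 0.33 at the least. The edgeR calls borrow much of their spread from all genes, with a median of 18.8 prior degrees of freedom beside 2 residual ones.

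The immunoproteasome genes are taken first. PSMB8 encodes the chymotrypsin-like subunit that takes the place of PSMB5, and lies at bases 32808494 to 32812456 of chromosome 6, minus strand (GRCh37). PSMB8 had 181 and 188 CPM in the shp63 libraries, against 127 and 118 CPM in the shControl libraries. Both shp63 libraries lay above both shControl libraries, a 1.51-fold rise (log2 fold change 0.59, SE 0.03; edgeR adjusted p = 6.09e-13), which the test beyond 1.5-fold did not call (adjusted p = 0.634).

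PSMB9, the immunoproteasome counterpart of PSMB6, lies beside PSMB8 at bases 32811913 to 32827628 of chromosome 6, plus strand. It had 59.7 and 59.6 CPM in shp63, against 42.7 and 41.8 CPM in shControl. The groups did not overlap, and the rise was 1.41-fold (log2 fold change 0.50, SE 0.04; edgeR adjusted p = 2.95e-10). PSMB10, the counterpart of PSMB7, lies at bases 67968409 to 67970767 of chromosome 16, minus strand. It had 71.5 and 73.0 CPM in shp63, against 44.4 and 41.3 CPM in shControl. The 1.69-fold rise of PSMB10 was the largest among the 41 tested genes (log2 fold change 0.75, SE 0.05; edgeR adjusted p = 1.51e-12; beyond 1.5-fold, adjusted p = 0.000724). In the annotation read here (GENCODE v44 lifted to GRCh37) PSMB9 overlaps PSMB8 and TAP1, which lie on the opposite strand. The RefSeq start of PSMB9, used for its promoter below, lies inside that GENCODE span and not at its first base. The library kit keeps strand, per the labels, but whether counting used it is not given in the sources used here, and without it reads in the overlaps cannot be told apart.

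The promoters of these genes and of the interferon-inducible activator genes PSME1 and PSME2 are shown because a shared motif lies close to a start site in all of them but PSMB9. Each is the 300 bases from 250 before to 50 after a RefSeq transcription start (build GRCh38.p14), written on the gene's strand. Capitals mark matches, on either strand, to a pair of GAAA with any 2 bases between them, the core of the interferon-stimulated response element to which IRF factors bind.
PSMB8 promoter, chr6:32843998-32844297 (minus strand): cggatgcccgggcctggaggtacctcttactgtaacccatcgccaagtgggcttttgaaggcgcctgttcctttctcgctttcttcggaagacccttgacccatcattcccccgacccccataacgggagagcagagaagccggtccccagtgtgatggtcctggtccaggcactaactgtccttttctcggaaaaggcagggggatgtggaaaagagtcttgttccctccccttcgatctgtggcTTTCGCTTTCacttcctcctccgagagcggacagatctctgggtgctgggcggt
PSMB9 promoter, chr6:32853942-32854241 (plus strand): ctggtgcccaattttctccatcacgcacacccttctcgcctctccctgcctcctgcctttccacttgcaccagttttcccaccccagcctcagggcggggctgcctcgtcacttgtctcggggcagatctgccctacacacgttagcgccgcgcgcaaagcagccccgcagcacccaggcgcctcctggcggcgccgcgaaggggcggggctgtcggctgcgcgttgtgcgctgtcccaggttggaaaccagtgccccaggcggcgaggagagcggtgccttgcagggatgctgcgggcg
PSMB10 promoter, chr16:67936801-67937100 (minus strand): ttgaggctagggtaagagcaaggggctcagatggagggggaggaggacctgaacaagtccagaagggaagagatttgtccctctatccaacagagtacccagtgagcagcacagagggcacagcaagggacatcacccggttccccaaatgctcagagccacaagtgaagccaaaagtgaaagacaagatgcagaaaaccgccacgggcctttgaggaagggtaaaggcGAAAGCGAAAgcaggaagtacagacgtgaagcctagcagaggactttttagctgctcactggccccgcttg
PSME1 promoter, chr14:24135944-24136243 (plus strand): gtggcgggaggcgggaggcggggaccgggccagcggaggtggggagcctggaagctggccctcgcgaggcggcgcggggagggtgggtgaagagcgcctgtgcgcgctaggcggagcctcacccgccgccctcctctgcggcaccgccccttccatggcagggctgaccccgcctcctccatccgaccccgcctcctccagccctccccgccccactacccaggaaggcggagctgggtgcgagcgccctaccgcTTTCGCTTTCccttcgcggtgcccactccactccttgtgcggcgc
PSME2 promoter, chr14:24146561-24146860 (minus strand): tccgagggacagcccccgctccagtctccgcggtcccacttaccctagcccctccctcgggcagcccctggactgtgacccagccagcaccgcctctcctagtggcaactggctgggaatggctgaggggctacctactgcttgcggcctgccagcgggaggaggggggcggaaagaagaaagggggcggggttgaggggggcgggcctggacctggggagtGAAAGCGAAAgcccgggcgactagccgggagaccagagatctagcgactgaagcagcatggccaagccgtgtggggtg

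The match began 4 bases before the start in PSMB8 (of which a second RefSeq start had none), 21 before it in PSMB10, 28 before it in PSME2, and at base 6 of the transcript in PSME1. In all 4 the letters were the same, GAAAGCGAAA or its reverse complement TTTCGCTTTC, a run found in 35 of 35093 RefSeq promoters (0.0997%) and looked for after it was seen here. PSMB9 had no match in its window, and was higher in shp63. Of the 4 genes with the shared letters, PSMB8 and PSMB10 were higher, PSME1 was 1.10-fold higher and PSME2 did not pass the test. The paired GAAA was in 3.58% of all promoters and in 6 of 45 promoters of the 38 member genes that the table holds. The other 2 matches were in PSMA4 and PSMB4, constitutive core genes that fell, with other inner letters, and stand here with up to 20 bases on each side.
PSMA4 stretch, chr15:78540155-78540194 (plus strand): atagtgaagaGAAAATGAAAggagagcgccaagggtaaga
PSMB4 stretch, chr1:151399485-151399534 (plus strand): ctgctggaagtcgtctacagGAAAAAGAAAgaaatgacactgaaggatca

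The other motifs searched, each on both strands, gave these counts. TGACNNNGC, the antioxidant response element core bound by NRF1 and NRF2, which drive proteasome genes under stress, was in 13 of the 45 member promoters and 13.4% of all promoters. CCAAT was in 19 of 45 and 34.6% of all, and TTCNNNGAA, the gamma-interferon activation site, in 8 of 45 and 7.66% of all. Of the genes with this last motif, PSMB8 rose, while PSMA2, PSMB5, PSMC4, PSMD2, PSMD3 and PSME3 fell and PSMA8 was not tested. The consensus NF-kB site and the p53 family paired half-site core were in 0 of 45, against 0.191% and 4.79% of all promoters. A match is a run of letters, not a bound site.

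The constitutive catalytic genes moved the other way from the immunoproteasome genes. PSMB5, the chymotrypsin-like subunit and the target of proteasome inhibitor drugs, had 137 and 142 CPM in shp63, against 153 and 150 CPM in shControl. PSMB6, the caspase-like subunit, had 69.7 and 72.0 CPM in shp63, against 82.1 and 82.4 CPM in shControl. PSMB7, the trypsin-like subunit, had 88.2 and 90.6 CPM in shp63, against 96.0 and 96.8 CPM in shControl. For all 3 both shp63 libraries lay below both shControl libraries. The groups did not overlap, in one direction or the other, for 86.4% of all tested genes. The log2 fold changes were -0.12 (SE 0.03), -0.22 (SE 0.04) and -0.11 (SE 0.04), with adjusted p of 0.00154, 4.72e-05 and 0.0125 in that order (edgeR, Benjamini-Hochberg). The PSMB7 call was lost when shp63 replicate 1 was left out (adjusted p = 0.0829).

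A ratio of 2 genes within a library needs no scaling factor. The PSMB8 to PSMB5 ratio of read counts was 1.33 and 1.32 in shp63, against 0.825 and 0.790 in shControl. The PSMB9 to PSMB6 ratio was 0.857 and 0.828 in shp63, against 0.519 and 0.507 in shControl, and the PSMB10 to PSMB7 ratio was 0.811 and 0.806 in shp63, against 0.463 and 0.426 in shControl. All 3 ratios were thus higher in both shp63 libraries, by 1.64-fold, 1.64-fold and 1.82-fold in that order. Over the sums of 3 genes the ratio was 1.68-fold higher, with a log2 difference of 0.75 beside within-group standard deviations of 0.01 in shp63 and 0.05 in shControl; the exact two-sided permutation p was 0.33, the smallest the design allows. Per kilobase of transcript, immunoproteasome genes made up 49.0% and 48.8% of the summed level of the 6 catalytic genes in shp63, against 36.75% and 35.6% in shControl. On that scale PSMB8 stood above PSMB5 in shp63 (ratio 1.23) and below it in shControl (ratio 0.750), while PSMB9 and PSMB10 stayed below PSMB6 and PSMB7 in both groups.

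**Figure D2:**
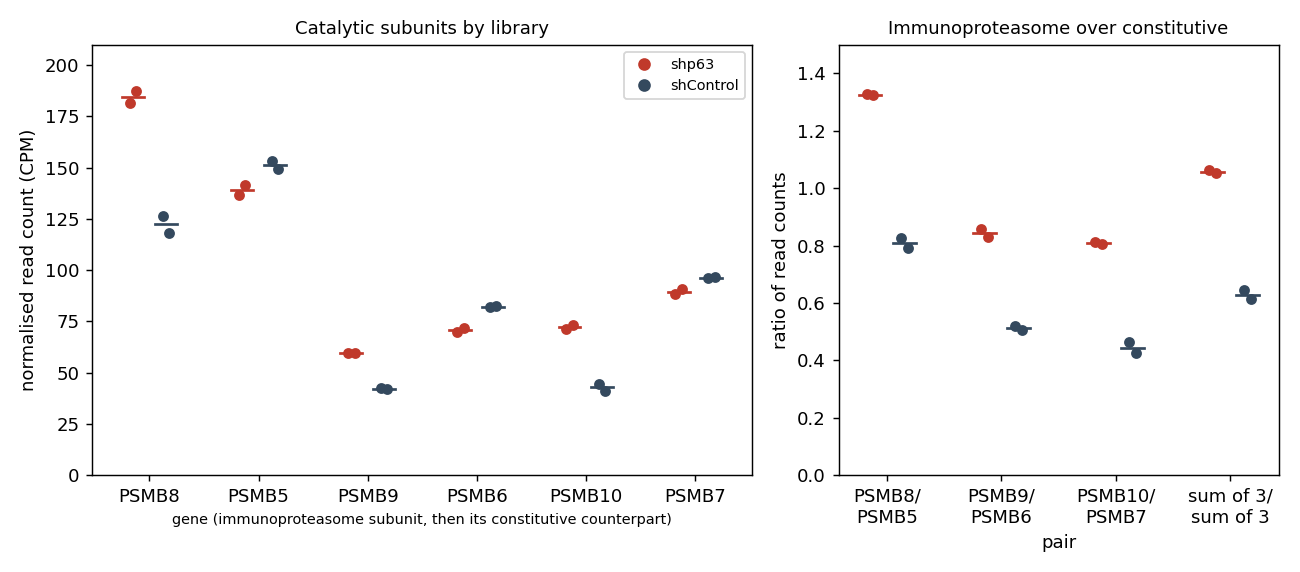
Left, CPM of each immunoproteasome gene and its constitutive counterpart, with 1 point per library and a line at the mean of 2; right, ratios of read counts within each library. The shp63 libraries lie above the shControl libraries in every ratio, as for PSMB8 over PSMB5 (1.33 and 1.32 against 0.825 and 0.790).

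Markers of leukocytes, which hold much immunoproteasome, moved in both directions in the same libraries. Of the 10 listed, 4 were tested, 3 of these rose and 1 fell: CD14 had 45.2 and 42.6 CPM in shp63 and 6.47 and 5.86 CPM in shControl, CD68 had 32.3 and 31.0 CPM in shp63 and 6.98 and 6.25 CPM in shControl, and LYZ rose but stayed under 1 CPM. ITGAM fell 2.53-fold, with 0.288 and 0.259 CPM in shp63 and 0.739 and 0.651 CPM in shControl, and the B cell gene CD79A, too low to test, had 0.0192 and 0.0598 CPM in shp63 and 0.108 and 0.112 CPM in shControl. The pan-leukocyte gene PTPRC was at 0.154 and 0.120 CPM in shp63 and 0.108 and 0.0744 CPM in shControl, the T cell gene CD3E at 0.0769 and 0.0798 CPM in shp63 and 0 in shControl, and GZMB at 0 in all 4 libraries. The part of such cells in the immunoproteasome values was not tested.

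Every tested gene of the constitutive core was lower: 14 of 14, where 37.1% of all tested genes were. The median log2 fold change was -0.22 for the core genes and -0.01 for all tested genes. The summed level of the core genes was 1813 and 1895 CPM in shp63, against 2145 and 2118 CPM in shControl, a change of -13%. In the alpha ring, which gates entry to the barrel, all 7 tested genes fell (median -0.22). PSMA2 fell most, with 151 and 165 CPM in shp63, against 207 and 199 CPM in shControl (log2 fold change -0.37, SE 0.04; edgeR adjusted p = 4.17e-08). PSMA4 was next (-0.34), and PSMA5 and PSMA7 changed least (-0.07 and -0.08).

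Calls near the threshold in the alpha ring depended on the fit. PSMA5 (edgeR adjusted p = 0.0345) was no longer called with RLE size factors, with DESeq2, or without shp63 replicate 1 or either shControl replicate, and PSMA7 was no longer called with DESeq2 or without shp63 replicate 1 or shControl replicate 2. PSMA6 lost its call without shp63 replicate 1. All 4 structural beta genes, already counted in the core above, fell (median -0.24), where 37.1% of all tested genes did. PSMB3 fell most of them, with 72.1 and 72.9 CPM in shp63, against 88.5 and 85.2 CPM in shControl (log2 fold change -0.26, SE 0.04, edgeR adjusted p = 4.86e-06). PSMB1, PSMB2 and PSMB4 had log2 fold changes of -0.23, -0.25 and -0.16.

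In the regulatory particle 13 of 17 genes fell, 1 rose and 3 did not pass the test. Of all tested genes 37.1% fell and 36.9% rose. The 17 genes had a median log2 fold change of -0.13. Their summed level was 2023 and 2092 CPM in shp63, against 2265 and 2282 CPM in shControl (a change of -9.50%). Of the 6 ATPases, which unfold the substrate and open the gate, 5 fell. PSMC3 fell most of all 41 tested genes, with 143 and 148 CPM in shp63, against 195 and 199 CPM in shControl (log2 fold change -0.43, SE 0.03; edgeR adjusted p = 1.40e-11). The other 4 that fell, PSMC1, PSMC4, PSMC5 and PSMC6, lay between -0.16 and -0.11. PSMC2 overlapped between the groups, with 95.1 and 98.8 CPM in shp63 and 96.8 and 95.4 CPM in shControl (log2 fold change 0.01, SE 0.04). The counts of PSMC1, which has 13 annotated pseudogenes, depend on how shared reads were assigned. The same limit holds for other genes with annotated pseudogenes, among them PSMA6 (4), PSMA2 and PSMD10 (3 each) and PSMB3 and PSMC2 (2 each).

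Of the base subunits without ATPase activity, PSMD1, a scaffold, had 167 and 172 CPM in shp63, against 197 and 195 CPM in shControl (log2 fold change -0.21, SE 0.03; edgeR adjusted p = 1.50e-06). PSMD2, the other scaffold, fell by 0.09 on the log2 scale, and the ubiquitin receptor gene PSMD4 did not pass the test (log2 fold change -0.01, SE 0.04). Of the 8 lid genes 6 fell, where 37.1% of all tested genes did. PSMD13 fell most of them, with 93.7 and 95.0 CPM in shp63, against 113 and 110 CPM in shControl (log2 fold change -0.24, SE 0.04, edgeR adjusted p = 2.89e-06). PSMD14, the enzyme that removes ubiquitin chains, had 101 and 103 CPM in shp63, against 118 and 117 CPM in shControl, and PSMD6 did not pass the test (log2 fold change -0.02, SE 0.04).

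The lid gene PSMD8 rose, with 126 and 132 CPM in shp63, against 119 and 120 CPM in shControl. That is a log2 fold change of 0.11 (SE 0.03; edgeR adjusted p = 0.00603). The call was lost when libraries were scaled by totals alone (0.02, adjusted p = 0.556, edgeR) or without shControl replicate 2 (edgeR adjusted p = 0.0522). PSMC1, PSMC6 and PSMD7 lost theirs without shp63 replicate 1, while PSMD4 and PSMD6 were called lower when libraries were scaled by totals alone (adjusted p = 0.0149 and 0.0227, edgeR).

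The 3 genes of chaperones that help to assemble the base, PSMD5, PSMD9 and PSMD10, all fell (median log2 fold change -0.29). By the same rule 37.1% of all tested genes fell. PSMD10, also known as gankyrin, had 50.3 and 51.3 CPM in shp63, against 66.6 and 62.3 CPM in shControl (log2 fold change -0.34, SE 0.05; edgeR adjusted p = 5.61e-07).

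The activator genes divided. PSME1 and PSME2 encode the interferon-inducible 11S activator. PSME1 had 211 and 215 CPM in shp63, against 198 and 188 CPM in shControl (log2 fold change 0.14, SE 0.03; edgeR adjusted p = 0.000387), a call lost with scaling by library totals (0.05, adjusted p = 0.114, edgeR). PSME2 had 137 and 139 CPM in shp63, against 132 and 133 CPM in shControl, and did not pass the test (log2 fold change 0.06, SE 0.03; adjusted p = 0.0731, edgeR), although its groups did not overlap. Keeping only genes at 1 CPM or more in 2 libraries, the fit called it higher (edgeR adjusted p = 0.0450), and scaling by library totals turned its sign (-0.02). PSME2 has 6 annotated pseudogenes.

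PSME3, the nuclear 11S relative, had 167 and 176 CPM in shp63, against 192 and 191 CPM in shControl (log2 fold change -0.16, SE 0.03). PSME4, the PA200 activator of the nucleus, had 125 and 130 CPM in shp63, against 154 and 156 CPM in shControl (log2 fold change -0.28, SE 0.03). Both fell without overlap (edgeR adjusted p = 8.68e-05 for PSME3 and 6.05e-08 for PSME4), where 86.4% of all tested genes had no overlap.

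Levels were compared between genes per kilobase of the canonical GENCODE transcript, which is not the authors' annotation, so a gene that uses a shorter transcript reads too low. On that scale the 41 genes ranged from 12.9 CPM per kilobase (PSMD9) to 229 (PSMA7) in shp63, and between the same genes from 15.2 to 241 in shControl. PSMA7 was followed by PSME1, PSME2 and PSMB8 in shp63, at 221, 174 and 164 CPM per kilobase. In shControl PSMB8 was at 109 CPM per kilobase, below PSMA1, PSMA2, PSMA3, PSMA6, PSMB4, PSMB5, PSMB3, PSMC3, PSMD2, PSME1 and PSME2 as well as PSMA7. Neighbours in the order, such as PSMD7 and PSMD8 in shp63 (85.1 and 84.9 CPM per kilobase), could differ by less than the spread between replicates.

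**Figure D3:**
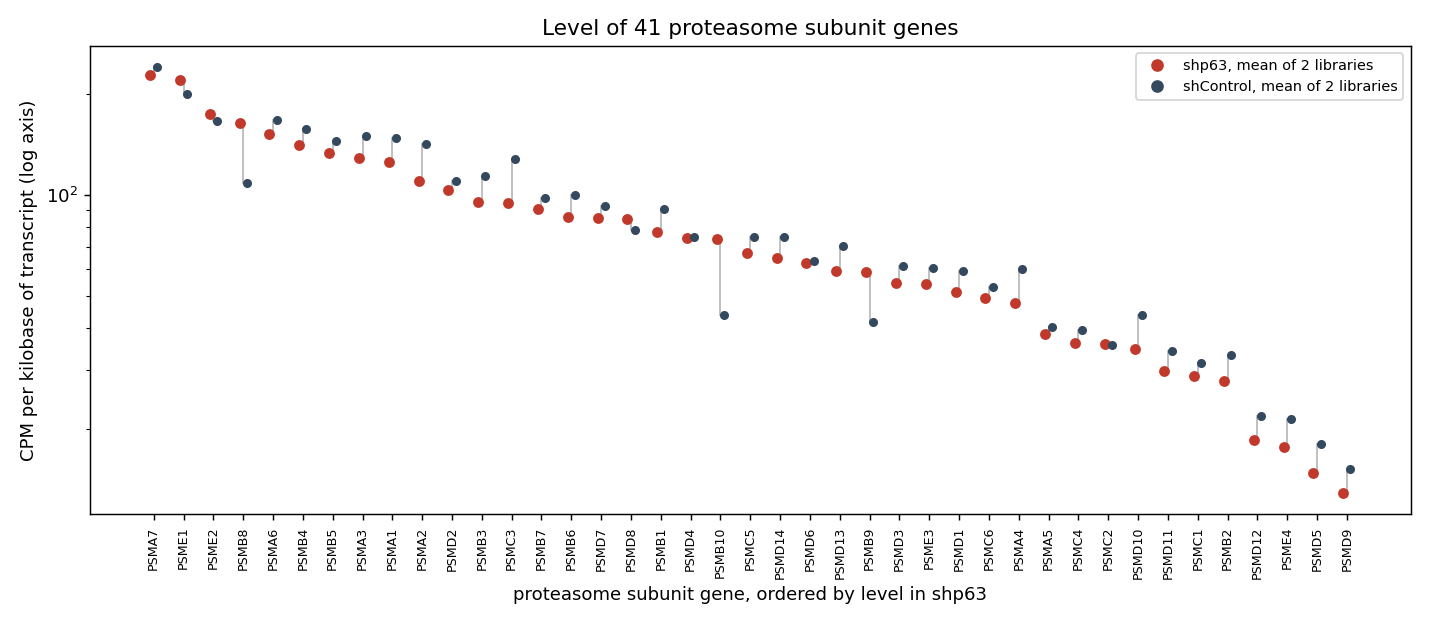
Mean CPM per kilobase of canonical transcript, on a log axis, of the 41 tested genes in shp63 and shControl (2 libraries each), ordered by the shp63 level. PSMA7 is highest in both groups (229 in shp63 and 241 in shControl), and PSMB8, PSMB9 and PSMB10 are the points that stand most above their shControl level.

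Genes that build or serve the proteasome were read from lists written from general knowledge. Of 5 assembly factors of the core 3 fell and 2 did not pass the test. By the same test 37.1% of all tested genes fell and 74.0% passed in either direction. PSMG1 and PSMG3, chaperones of the alpha ring, had 43.0 and 44.04 CPM and 42.1 and 41.9 CPM in shp63, against 66.6 and 65.9 CPM and 65.2 and 62.6 CPM in shControl. Both fell 1.52-fold (edgeR adjusted p = 1.81e-11 and 2.03e-11), and PSMG2 fell 1.23-fold. POMP, which assists the assembly of the beta ring, had 112 and 116 CPM in shp63 and 115 and 113 CPM in shControl, and PSMG4 had 5.46 and 5.86 CPM in shp63 and 5.23 and 5.21 CPM in shControl.

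Of 15 partners and regulators of the proteasome 8 fell, 3 rose and 4 did not pass the test (median log2 fold change -0.12), where 74.0% of all tested genes passed it in one direction or the other. ADRM1 and SHFM1, further subunits of the regulatory particle with symbols outside the PSM series, fell by 0.15 and 0.25 on the log2 scale. AKIRIN2, which carries proteasomes into the nucleus, and USP14, a deubiquitinase of the regulatory particle, fell 1.39-fold and 1.23-fold. ZFAND5, which stimulates the proteasome, rose 1.58-fold (298 and 298 CPM in shp63, against 186 and 190 CPM in shControl), the ubiquitin ligase gene UBE3C rose 1.23-fold, and UBQLN2, a shuttle protein gene, rose 1.21-fold.

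Of 12 genes that control proteasome transcription or process NRF1, 6 rose, 3 fell and 3 did not pass the test (6 and 6 with scaling by library totals), again beside 74.0% of all tested genes that passed it. NFE2L1, the gene of NRF1, had 444 and 436 CPM in shp63, against 285 and 282 CPM in shControl, a 1.55-fold rise (edgeR adjusted p = 1.77e-14), in libraries where the constitutive subunits were lower. NFE2L2, the gene of NRF2, fell 1.09-fold, with 174 and 181 CPM in shp63 and 193 and 193 CPM in shControl (edgeR adjusted p = 0.000871). FOXO4, a transcription factor known to regulate PSMD11 in human embryonic stem cells, rose 1.87-fold. Among the small MAF partners of NRF1 and NRF2, MAFK rose 2.91-fold (661 and 599 CPM in shp63, against 200.1 and 234 CPM in shControl) and MAFF 2.89-fold, while MAFG fell 1.30-fold. The MAFK call was lost without either shp63 replicate (adjusted p = 0.0770 and 0.0552, edgeR).

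All 6 genes of ubiquitin supply passed the test, 4 lower and 2 higher (4 and 1 with scaling by library totals, 3 and 1 with DESeq2). Of all tested genes 74.0% passed it in either direction. The polyubiquitin gene UBB had 546 and 553 CPM in shp63, against 448 and 435 CPM in shControl (1.24-fold higher; edgeR adjusted p = 8.13e-09). RPS27A, which encodes ubiquitin fused to a ribosomal protein, fell 1.28-fold (622 and 666 CPM in shp63, against 821 and 830 CPM in shControl), and the E1 enzyme genes UBA1 and UBA6 fell 1.08-fold and 1.07-fold.

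Genes of antigen processing, and of the interferon signalling that controls the immunoproteasome, rose for the most part. Of these 18 genes 15 (83.3%) were higher, where 36.9% of all tested genes were, 1 was lower and 2 did not pass the test (median log2 fold change 0.44). TAP1, the peptide transporter gene whose span lies within the GENCODE span of PSMB9, had 256 and 258 CPM in shp63, against 179 and 185 CPM in shControl. TAP1 was 1.41-fold higher, as was PSMB9, and its partner TAP2 was 1.17-fold higher. B2M, the light chain of HLA class I, had 3152 and 3267 CPM in shp63, against 1031 and 1035 CPM in shControl, and was 3.11-fold higher (edgeR adjusted p = 1.01e-19). TAPBP, which loads class I molecules, was 2.90-fold higher. ERAP2, a peptide-trimming enzyme gene, fell 1.17-fold, while IRF2 and JAK2 did not pass the test.

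Among the factors that act on immunoproteasome promoters, IRF1 had 148 and 149 CPM in shp63, against 97.4 and 94.4 CPM in shControl (1.55-fold higher; edgeR adjusted p = 1.24e-13). NLRC5, an activator of class I genes, rose 1.20-fold (18.9 and 16.9 CPM in shp63, against 15.4 and 14.4 CPM in shControl). Their part in the immunoproteasome values was not tested.

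**Figure D4:**
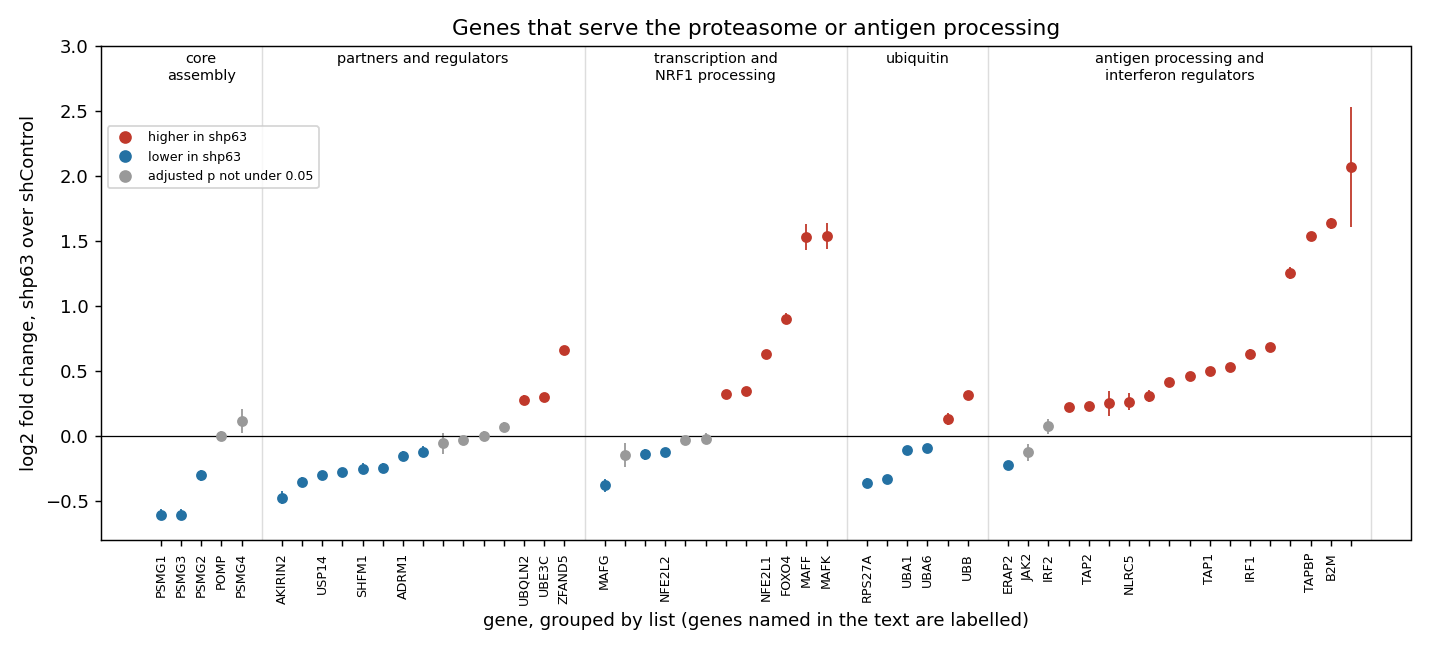
Log2 fold change (shp63 over shControl) of the 56 tested genes of 5 lists around the proteasome, those named in the text labelled, with bars of 1 standard error from the edgeR fit over 2 libraries a group; colours give the call at an adjusted p under 0.05. Of the antigen processing and interferon genes 15 of 18 are higher, and 3 of 5 core assembly factors are lower. Of all tested genes 36.9% are higher and 37.1% lower.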

How the data were processed

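Polyadenylated RNA of 4 H226 cultures was sequenced. Per the series' design text and the submitters' processing notes, the authors aligned reads to GRCh37 (hg19) with TopHat2 2.0.13 and counted them per gene with HTSeq 0.6.1; the annotation and strand setting are not given in the sources used here. The deposited values are raw read counts per gene symbol, not normalized.

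Counts were tested with edgeR 4.0.16 (R 4.3.3): filterByExpr (minimum count 10, minimum total 15) kept 14901 of 25369 genes, TMM factors ranged from 0.966 to 1.03, and a robust quasi-likelihood model had group as its only term, fitted on all 4 libraries with Benjamini-Hochberg adjustment over all tested genes. The submitters call the samples of a group independent replicates; those pairs differed by more than sampling noise (chi-square per degree of freedom 3.60 in shp63 and 3.30 in shControl). Standard errors come from the fold change and the root of its F statistic. Alternatives were RLE factors, library totals, other filters, DESeq2 1.42.0, limma-voom (limma 3.58.1), a replicate block and each library left out.

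The members and lists were chosen with earlier results of these data known. Every member may be named; lists give up to 2 genes of smallest adjusted p per direction, except some that are counted in their list but not reported singly here. POMP, PSMG2, PSMG4, ADRM1, SHFM1, UBQLN2, MAFF, MAFK, UBA1, UBA6, TAP1, TAP2, IRF1, IRF2, JAK2 and NLRC5, and the single markers, were named after their values were seen. Gene positions and lengths are from GENCODE v44 lifted to GRCh37, and promoters are RefSeq's (GRCh38.p14).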

Additional observations from a re-analysis of the deposited data

How the results depend on the processing

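Over the alternatives the numbers of members called were 25 to 34 lower and 3 to 6 higher, the 3 immunoproteasome genes kept their calls and direction under each, and PSMB10 alone passed the 1.5-fold test under each. The 25 lower was without shp63 replicate 1. Scaling by library totals without a composition factor, which puts the median of all tested genes at -0.10, gave 3 members higher, 6 lower in the NRF1 list, 1 higher in the ubiquitin list (also 1 with DESeq2) and 2 lower in the antigen processing list. It moved the median log2 fold change to -0.25 for all members, -0.30 for the constitutive core, -0.31 for the alpha ring, -0.33 for the structural and -0.21 for the catalytic beta genes, 0.50 for the immunoproteasome, -0.22 for the regulatory particle, -0.21 for its ATPases, -0.18 for its other base genes, -0.27 for its lid, -0.38 for its chaperones and -0.14 for the activators.

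With each library left out in turn the medians ranged over -0.25 to -0.18 (constitutive core), -0.26 to -0.21 (structural beta), -0.15 to -0.095 (catalytic beta), 0.54 to 0.64 (immunoproteasome), -0.17 to -0.12 (regulatory particle), -0.21 to -0.15 (lid) and -0.071 to -0.024 (activators); members called ranged from 25 to 32 lower and 4 to 5 higher, and ubiquitin genes called higher from 1 to 2. The log2 difference in the summed catalytic ratio ranged from 0.71 to 0.79.

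Signs turned only for genes that had not passed the test: with library totals PSMC2 (-0.076), PSME2 (-0.025), POMP (-0.085) and IRF2 (-0.014), and with no filter POMP (-0.0017). With each library left out in turn the log2 fold change ranged from -0.016 to 0.041 for PSMC2, -0.040 to 0.016 for PSMD4, -0.060 to 0.029 for PSMD6, -0.024 to 0.029 for POMP and -0.0026 to 0.145 for IRF2. The causes were not tested.

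Same-numbered replicates tended weakly to deviate in opposite directions (correlation -0.24 across genes). Whether cultures were handled in pairs cannot be told from 1 correlation. With the replicate number as a block 31 members were lower and 5 higher, PSMA5 being lost, and 10858 genes were called in all. With the numbers crossed, an alternative added after seeing the data, 32 were lower and 5 higher, and 11387 were called. Every tested member had at least 1761 reads in each library, and each group had 2 cultures and 1 hairpin.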
